A study of Homo sapiens with 10 samples.

Results

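OVKATE is an established human ovarian carcinoma cell line, and its single PromethION long-read library is described here against 6 other lines of the same series. The other lines were OVMANA, OVTOKO, SK-OV-3, COV362 and COV504, with 1 library each, and IGROV-1, taken as the mean of its 2 libraries. The members were chosen by line and instrument alone, so OVKATE contributed 1 of the 10 libraries, and the 2 IGROV-1 libraries made on the MinION instrument entered only as an alternative. Total RNA of all lines was purified on RNeasy Plus columns and prepared with a nanopore ligation kit, with a lengthened end-repair step. The labels give no treatment, genotype, passage or histological type, so each group is an untreated line as far as the labels go. OVKATE has no replicate, and each other line except IGROV-1 is also a single library.

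Kallikrein-related peptidases are secreted serine proteases encoded side by side in 1 cluster, and several of them have been studied as ovarian carcinoma serum markers. WT1 is a zinc-finger transcription factor of the embryonic urogenital ridge that pathologists use as a marker of serous ovarian carcinoma. LCN2, or lipocalin 2, is a secreted protein that binds bacterial siderophores and is made by many inflamed or transformed epithelia. Ovarian carcinoma lines differ widely in how far they keep epithelial junctions or express mesenchymal genes, and that contrast is a usual way of setting them beside each other.

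The 8 PromethION libraries held between 1729782 and 2552499 assigned reads, and OVKATE held 2021865. OVKATE had the most genes with at least 1 count, 15524, and the most transcripts, 26924. Levels are given as CPM, the count of a gene scaled to the same total of assigned reads in every library, a scale on which the deposited TPM values were the same numbers, with no length divided out. Levels are compared between lines and not between genes. A gene with no count in OVKATE could still have been present at up to 1.48 CPM, the level of 3 counts, and intervals and such limits cover counting error only. The share of reads on mitochondrial ribosomal RNA was 1.78% in OVKATE and 1.58% to 3.31% in the other single libraries, but 9.13% and 10.9% in the IGROV-1 pair. These were bulk lines, so fewer cells expressing a gene and less of its RNA per cell cannot be told apart.

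OVKATE carried the markers of an epithelial ovarian carcinoma. Levels in it were 817 CPM for EPCAM, an epithelial adhesion molecule, 1693 CPM for KRT7 and 1506 CPM for KRT19, both simple-epithelium keratins, and 174 CPM for PAX8, the Müllerian lineage transcription factor. MUC16, which carries the CA125 epitope, was at 57.4 CPM, against 17.2 CPM or less in the other lines. The markers WT1 and LCN2, which describe the line here, were both highest in it. WT1 was at 76.2 CPM in OVKATE, at 0.392 CPM or 1 read in COV362 and at 0 in the other 5 lines. LCN2 was at 1848 CPM in OVKATE, 144 in COV504, 87.9 in OVTOKO, 54.9 in COV362, 33.4 in SK-OV-3, and 0 in OVMANA and in both IGROV-1 libraries. OVKATE thus lay 12.8-fold above the next line for LCN2, yet the 6 other lines were themselves so spread that edgeR's quasi-likelihood test did not call it (log2 fold 4.83, SE 1.92, adjusted p = 0.745). Markers of other cell types were scarce. Of 13 leukocyte markers, 10 including PTPRC and CD3D had no count in OVKATE, CD14 had 8 counts, and LYZ, the 1 member that passed the filter on low counts, was at 12.4 CPM against 1.33 CPM or less (log2 fold 4.86, or 6.14 without COV504). Of 8 endothelial markers, 5 including CDH5, CLDN5 and KDR had no count, and the 2 tested members summed to 1.98 CPM against 0.534 to 25.8 CPM, with a median log2 fold of -3.75 (-1.43 with the member at 0 set to its bound of 3 counts, -7.19 without SK-OV-3). Of 10 fibroblast markers, 7 including COL1A2, COL3A1, LUM and DCN had no count, while THY1 made up nearly all of the 1214 CPM summed over the 5 tested members (0 to 592 CPM elsewhere), whose median log2 fold was -6.97 (-2.35 with zeros at their bound, -2.32 without SK-OV-3). Of 13 ciliated-cell markers 4 were tested, the median log2 fold was -0.77 (-0.11 without OVMANA, -0.04 without COV504), and their summed level of 683 CPM lay within the 325 to 915 CPM of the other lines. FOXJ1, the master regulator of motile cilia, was at 11.9 CPM, below OVMANA at 125 and IGROV-1 at 49.5.

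Only a small number of genes stood beyond the spread of the 6 other lines when that spread was used as the error. edgeR's quasi-likelihood test on 12738 genes, adjusted by Benjamini-Hochberg, called 11 genes higher in OVKATE (0.0864% of those tested) and 0 lower (0%). At an unadjusted p under 0.05 the counts were 473 higher and 362 lower, and the smallest adjusted p among lower genes was 0.2115, that of SCAF8. DESeq2 called 32 higher and 93 lower. A permutation of 1 library against 6 lines cannot go below an exact p of 0.143, so the test rests on a variance shared across genes, and OVKATE was assumed to vary as the other lines do. The 11 calls depended on the lines kept: 4 genes were called without OVMANA, 1 without OVTOKO, 1 without SK-OV-3, 6 without COV362, 1 without COV504, and 10 without IGROV-1 or without its replicate 2. Each of the 11 genes lay above all 6 lines, and each lost its call in at least 2 of 16 alternative settings. A second measure, with no test, was the distance of OVKATE from the nearest other line on the scale of log2(CPM + 1). By it, 788 of the 12738 genes (6.19%) were at least 2-fold above every other line and 186 (1.46%) were at least 2-fold below every other line. When library sizes were scaled by TMM, the composition correction of edgeR, these became 563 and 279. OVKATE was the highest of the 7 lines for 3398 genes (26.7%) and the lowest for 1202 (9.44%). The other lines had 168 to 368 genes at least 2-fold above all the rest and 133 to 368 at least 2-fold below. Between the 2 IGROV-1 libraries 391 genes (3.07%) were at least 2-fold apart, in either direction. The labels do not say whether these replicates are technical or separate cultures. The genes nearest the threshold were INPPL1, 1.0002 above, and OXR1, 0.9996 above, then SOX4 at -1.0016 and ETHE1 at -0.9857, all as log2 distances.

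The genes called higher were led by kallikreins. KLK6, a trypsin-like member, was at 1027 CPM in OVKATE, at 0.859 CPM (2 reads) in 1 IGROV-1 library and at 0 in all the rest (log2 fold 12.28, SE 0.82, adjusted p = 0.00551 by edgeR's quasi-likelihood test). The joined identifier of KLK8 and KLK9 was at 241 CPM, with 1 read each in OVMANA and COV362 (log2 fold 10.03, adjusted p = 0.0115 by edgeR). KLK11 was at 99.9 CPM with a single read in SK-OV-3 (adjusted p = 0.0205 by edgeR). Of the 11 called identifiers 7 had no more than 2 reads in any other library, namely KLK6, the joined KLK8 and KLK9, KLK11, WT1, NGFR, KLHDC8A and KRT23. They passed the filter on low counts through OVKATE alone, so their p-values are printed as the fit gave them and support nothing beyond the counts. KLK6 lost its call without IGROV-1 or without its replicate 2 (highest adjusted p = 0.204 by edgeR), the library that held its other 2 reads, and KLK11 lost its call without any 1 of OVMANA, OVTOKO, SK-OV-3, COV362 or COV504 (highest adjusted p = 0.473 by edgeR). KLK7, which cleaves corneodesmosomes in skin, and KLK5, which activates it, had no read in any other line. KLK7 was at 728 CPM, at least 419.8-fold higher than a line with 3 reads, and KLK5 was at 369.5 CPM, at least 213.0-fold higher. Neither was called (adjusted p = 0.2115 and 0.23 by edgeR), although no read of either was seen in the other lines, so at these levels the call did not follow the size of the difference. KLK10 was at 118 CPM against 1.33 CPM or less (adjusted p = 0.0899 by edgeR).

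The cluster lies on chromosome 19 of GRCh38, at chr19:50819148-51084245. Of its 13 kallikrein genes with an identifier of their own, 5 reached 10 CPM in OVKATE and 0 did in any other line, where the highest level of any of them was 1.33 CPM. The 5 were KLK5, KLK6, KLK7, KLK10 and KLK11, which sit next to each other around the joined KLK8 and KLK9. KLK4, KLK12, KLK13, KLK14 and KLK15 had no count in OVKATE, nor had KLK1, KLK2 or KLK3, the gene of prostate-specific antigen. Reads thus ran from KLK5 to KLK11, with 0 counts on both sides of that stretch. KLK10 and the description as a stretch were chosen after their values were seen. Several of these genes overlap unnamed noncoding transcripts on the opposite strand, and the sources used here do not say whether reads were counted by strand. The bases just upstream of KLK5 and KLK7 are shown because these 2 genes had no read in any other line. They are RefSeq sequences of GRCh38.p14 on the minus strand, 5′ to 3′, ending where the annotated transcripts of the gene begin, at chr19:50953094-50953288 for KLK5 and chr19:50984100-50984314 for KLK7.
KLK5 upstream: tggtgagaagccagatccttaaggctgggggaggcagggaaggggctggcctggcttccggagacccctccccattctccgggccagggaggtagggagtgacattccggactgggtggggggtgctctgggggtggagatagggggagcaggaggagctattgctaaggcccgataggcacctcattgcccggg
KLK7 upstream: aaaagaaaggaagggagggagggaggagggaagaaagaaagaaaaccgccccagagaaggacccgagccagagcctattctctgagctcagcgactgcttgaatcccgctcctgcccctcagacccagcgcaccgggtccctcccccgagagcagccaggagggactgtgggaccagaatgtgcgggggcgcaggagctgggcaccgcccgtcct
Both are wholly in lower case, since capitals were kept for matches to 3 motifs on either strand and there were none. The motifs were TGANTCA, the AP-1 site, then CAGGTG, an E-box, and then TATAAA, the TATA box. The full 250-base RefSeq windows reach 55 bases into the annotated gene for KLK5 and 35 bases for KLK7. In them GC content was 64.8% for KLK5 and 64.0% for KLK7, and none of the 3 motifs was found. Windows of KLK6, KLK10, KLK11, LCN2 and WT1 were searched as well. KLK6 and KLK11 held 1 E-box each, LCN2 held 2 E-boxes and 1 AP-1 site, and KLK10 and WT1 held none of the motifs. The RefSeq start used for KLK6 lies 619 bases from the start of its main transcript in OVKATE. KLK7 has 3 RefSeq windows, and only that nearest the start of its main transcript in OVKATE was searched. Of 35116 RefSeq windows of 250 bases, 6.57% held the AP-1 site, 17.5% the E-box and 10.7% the TATA box.

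**Figure D1:**
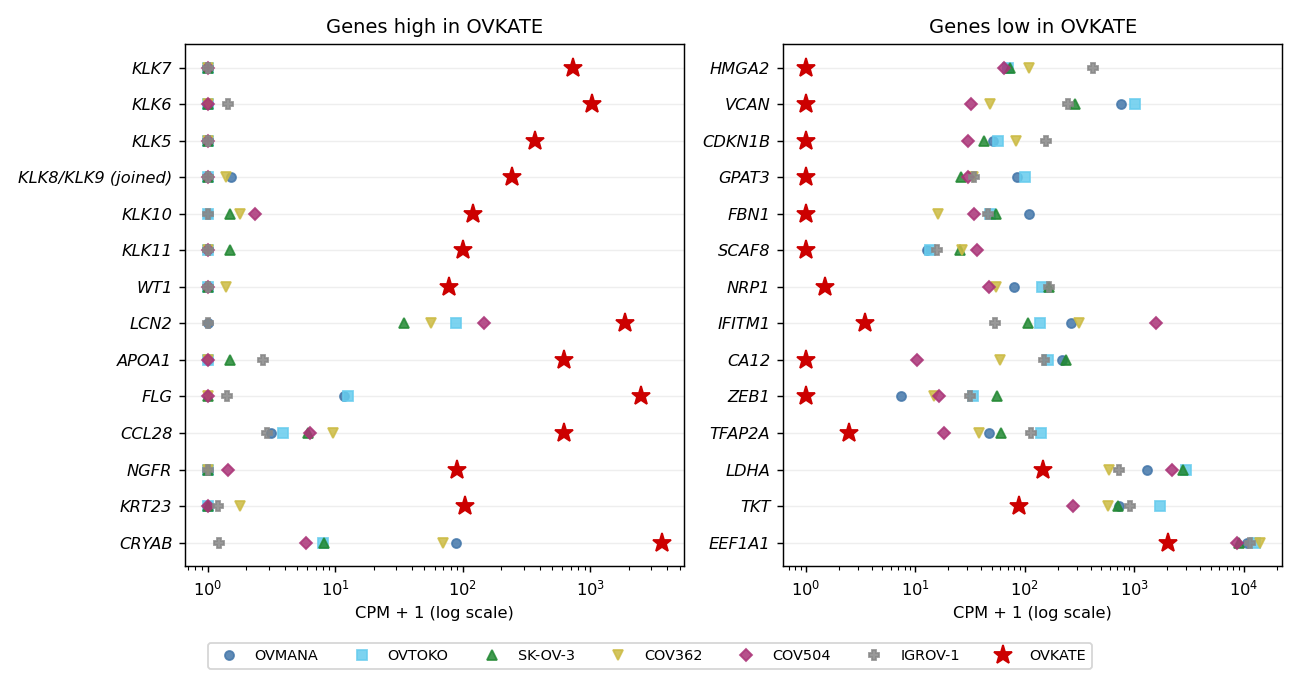
Level of 14 genes high in OVKATE (left) and 14 genes low in OVKATE (right), as CPM + 1 on a log axis, with 1 symbol per line and IGROV-1 as the mean of its 2 libraries. OVKATE (red stars) lies to the right of all other lines for every gene on the left, from 76.2 CPM for WT1 to 3619 CPM for CRYAB, and to the left of them for every gene on the right.

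The other genes called higher came from unrelated families. WT1 lies at chr11:32387775-32435630 on the minus strand and had 154 counts in OVKATE (log2 fold 9.05, SE 0.96, adjusted p = 0.0217 by edgeR). Its antisense neighbour WT1-AS, which overlaps its start on the plus strand, was at 6.92 CPM in OVKATE and at 0.392 CPM or 0 elsewhere. CCL28, a chemokine of mucosal epithelia, was at 624 CPM against 1.93 to 8.62 CPM, a 72.4-fold step over COV362 (log2 fold 6.87, SE 0.61, adjusted p = 0.0115 by edgeR). APOA1, the main protein of high-density lipoprotein and otherwise a liver and gut gene, was at 620 CPM against 0 to 1.71 CPM (log2 fold 9.88, SE 1.10, adjusted p = 0.0262 by edgeR). NGFR, the low-affinity neurotrophin receptor, was at 89.0 CPM with 1 read in COV504 and none elsewhere. KRT23, a type I keratin, was at 103 CPM against 0.783 CPM or less, KLHDC8A at 73.2 CPM against 0.392 CPM or less, and SCX, a tendon transcription factor, at 106 CPM against 1.52 to 3.92 CPM. Their adjusted p-values by edgeR lay between 0.021 and 0.0282. SCX overlaps BOP1 on the opposite strand. A joined identifier of LINC00969, SDHAP2 and MUC20 was at 203 CPM against 4.63 to 9.62 CPM (adjusted p = 0.0115 by edgeR), and which of its genes the reads came from is not resolved. CCL28 and the 2 joined identifiers lost their calls without OVTOKO, SK-OV-3 or COV504 (highest adjusted p = 0.0739 by edgeR). WT1, APOA1, NGFR, KLHDC8A and SCX lost theirs without any 1 of the 5 single-library lines, with highest adjusted p-values of 0.464, 0.158, 0.379, 0.474 and 0.082 by edgeR, and KRT23 without OVMANA, OVTOKO, SK-OV-3, COV504 or IGROV-1 (highest 0.113).

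A wider set of 51 identifiers had at least 10 CPM in OVKATE and fewer than 3 counts in every other line, and 11 of them had no count at all elsewhere. Besides the kallikreins these included STEAP4, a metalloreductase, at 64.3 CPM, and PHOX2A, an autonomic neuron transcription factor, at 40.1 CPM, both at 0 in all the rest. MAF, a bZIP transcription factor, was at 22.8 CPM, SFTPD, the collectin surfactant protein D, at 16.3 CPM, and MUC5B, a gel-forming airway mucin, at 11.9 CPM, again with 0 elsewhere. SOX11, a neural-progenitor transcription factor, was at 23.7 CPM with 1 read in COV504, and RELN, the secreted glycoprotein reelin, at 26.2 CPM with 1 read in OVTOKO. None of these 7 was called, and each had no more than 1 read in any other library. Further genes stood out by their level in OVKATE and were chosen after their values were seen. CRYAB, a small heat-shock chaperone, was at 3619 CPM against 87.6 in OVMANA, 69.0 in COV362 and 7.09 CPM or less in the remaining 4 lines. FLG, the epidermal protein filaggrin, was at 2503 CPM against 11.6 CPM in OVTOKO, 10.7 in OVMANA and 0.427 or less elsewhere, while the antisense FLG-AS1 that spans it was at 1.98 CPM. CST6, an epithelial cystatin, was at 737 CPM and 41.4-fold above COV504, and SPOCK2, a matrix proteoglycan, at 1044 CPM and 13-fold above COV504. S100A14 was 17.9-fold and PTGS1, or cyclooxygenase-1, 16.4-fold above the next line, COV504 in both cases. The joined identifier of IGF2 and INS was at 866 CPM against 18.7 CPM in COV504 and 1.73 CPM or less elsewhere. Among noncoding genes LINC01508 was at 112 CPM against 4.62 CPM or less and UNC5B-AS1 at 169 CPM against 12.0 CPM or less. None of these genes was called by edgeR.

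Genes of the Müllerian tract and of serous carcinoma lay on the high side in OVKATE. Of 20 listed genes 16 were tested, with 2 in joined identifiers and 2 too low. Of the 16, 2 were called higher (KLK6 and WT1, both nearly without reads elsewhere), 7 were at least 2-fold above every other line (6.19% of all genes) and 9 were the highest of the 7 lines (26.7%). The median log2 fold was 1.79, or 2.53 without COV362, against -0.15 over all genes tested. That background moved to -0.12 with DESeq2 size factors and 0.14 with library totals, and folds here are to be read against it. FOLR1, the folate receptor targeted in ovarian cancer, was at 2175 CPM against 8.45 CPM in COV504, the lowest line, and 778 in OVMANA, the next highest. CDH6, a kidney and Müllerian cadherin, was at 1056 CPM against 405 in COV504, 360 in COV362, 70.4 in SK-OV-3 and 0 in the other 3 lines. CRABP2, which carries retinoic acid, was at 970 CPM against 142 or less, and BCAM, a laminin receptor, at 921 CPM against 26.8 to 341 CPM. PAX8 was within the range of the other lines, 84.1 to 340 CPM. This list was drawn up with results of these libraries known, so its direction is no independent evidence.

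Among 19 secreted defence and acute-phase genes the picture was split. Of the 13 tested, 6 were at least 2-fold above every other line (6.19% of all genes) and 0 were below all of them. The median log2 fold, however, was -0.55, and it turned to 2.44 without OVTOKO. Besides LCN2 and MUC16, WFDC2, which encodes the serum marker HE4, was at 1013 CPM against 284 in COV362, 95.2 in COV504, 0.534 CPM or less in OVMANA, OVTOKO and IGROV-1, with SK-OV-3 between at 4.56 CPM. TFF3, a trefoil peptide of mucous cells, was at 39.1 CPM against 4 CPM in COV504 and 0 elsewhere, and MUC4 and LYZ were at 5.93 and 12.4 CPM. SLPI, a secreted protease inhibitor, was at 648 CPM, below SK-OV-3 at 1353 and OVTOKO at 2083 CPM. NF-κB targets and chemokines were mixed. Of 20 tested of 21, 0 were at least 2-fold above every other line (6.19% of all genes) and 0 at least 2-fold below (1.46%), which at this list size is little different from the share over all genes. There were 2 highest in OVKATE (26.7% of all genes) and 2 lowest (9.44%). The median log2 fold was -2.39 (-2.26 with genes at 0 set to their bound). IL6 had no count in OVKATE and was at 91.9 CPM in OVMANA, and NFKBIZ was at 1.48 CPM against 3.56 to 166 CPM. CXCL1, a neutrophil chemokine, was at 59.4 CPM within a range of 0 to 382. TNFAIP2 was highest in OVKATE, at 284 CPM against 42.0 to 150 CPM, and so was RELB, an NF-κB subunit, at 14.8 CPM against 14.4 in OVMANA. The summed level of the tested members was 597 CPM, above SK-OV-3 at 250 CPM and IGROV-1 at 332 CPM and below OVMANA at 4103 CPM.

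Of 13 genes linked to clear cell carcinoma, 9 were tested and 0 were called. At least 2-fold above every other line was 1 (GPX3, 6.19% of all genes), and 1 was below (SPP1, 1.46%). In OVKATE 2 were highest (26.7% of all genes) and 2 lowest (9.44%). With 9 genes, such counts are no result about the list. The median log2 fold was -5.96 (-5.33 with zeros at their bound), or -4.48 without OVMANA. The summed level of 1377 CPM was above IGROV-1 at 1177, COV504 at 971 and COV362 at 567 CPM, and below OVMANA at 22217 CPM. SPP1, or osteopontin, was at 8.90 CPM in OVKATE against 23.6 CPM in COV504 and 16460 in OVMANA. GPX3, a secreted glutathione peroxidase, went the other way and was at 1155 CPM against 336 in OVMANA, 316 in COV504, 99.9 in COV362, 43.9 in OVTOKO and no count in IGROV-1 or SK-OV-3.

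Many genes of the epithelial list were highest in OVKATE, though none was called. Of 31 genes of epithelial junctions and identity 29 were tested: 0 were called, 8 were at least 2-fold above every other line (6.19% of all genes), 20 were the highest of the 7 lines (26.7% of all genes) and 0 were the lowest. With TMM-scaled library sizes the counts were 6 and 16, and without OVMANA they were 16 and 24, with a median log2 fold of 2.84. With all lines the median log2 fold was 1.68, and the summed level was 6069 CPM against 609 in SK-OV-3 and 4462 in OVMANA. RAB25, a small GTPase of apical recycling, was at 307 CPM against 8.90 in COV504, 1.07 in OVMANA and 0 in the remaining 4 lines. The transcription factors GRHL2 and OVOL2, which maintain epithelial identity, were at 24.2 and 52.4 CPM, 2.72-fold and 3.68-fold above COV504. AP1M2, the epithelial clathrin adaptor subunit, was at 348 CPM against 0 to 83.8 CPM. CDH1, or E-cadherin, was second to OVMANA, at 151 against 214 CPM, and so was EPCAM, at 817 against 1814 CPM.

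Mesenchymal and matrix genes were less uniform. Of 37 listed 33 were tested, 0 were called, the median log2 fold was -2.66 (-1.88 with zeros at their bound), and 9 of those tested had no count in OVKATE. There were 2 highest in OVKATE (4 without COV504) and 4 lowest (7 without OVMANA), against 26.7% and 9.44% of all genes. The number lowest with all lines was near that share. ZEB1, a repressor of epithelial genes, had 0 counts against 6.41 CPM in OVMANA and up to 54.7 CPM in SK-OV-3, so OVKATE was at least 4.32-fold lower than any line. FN1, or fibronectin, had 0 counts against 782 CPM in SK-OV-3, 266 in COV504 and 0 in OVMANA. COL1A2, COL3A1, SNAI2 and TWIST2 had 0 counts too, but OVMANA had none of these either. ACTA2, or smooth muscle actin, and ZEB1 were the 2 members at least 2-fold below every other line (1.46% of all genes). There were 4 such members without COV362 or without IGROV-1. VIM, or vimentin, was the lowest of the lines at 351 CPM, though close to IGROV-1 at 481 CPM. THY1 and CTGF, by contrast, were at least 2-fold above every other line, a number near the 6.19% of all genes. THY1, a surface glycoprotein of fibroblasts and some stem cells, was at 1184 CPM against 157 in COV362, 65.4 in COV504 and 0.506 or less elsewhere. CTGF, a YAP target, was at 299 CPM against 61.8 CPM in COV504. CDH2, or N-cadherin, was at 92.0 CPM, below COV362 and COV504, so OVKATE expressed both E- and N-cadherin.

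**Figure D2:**
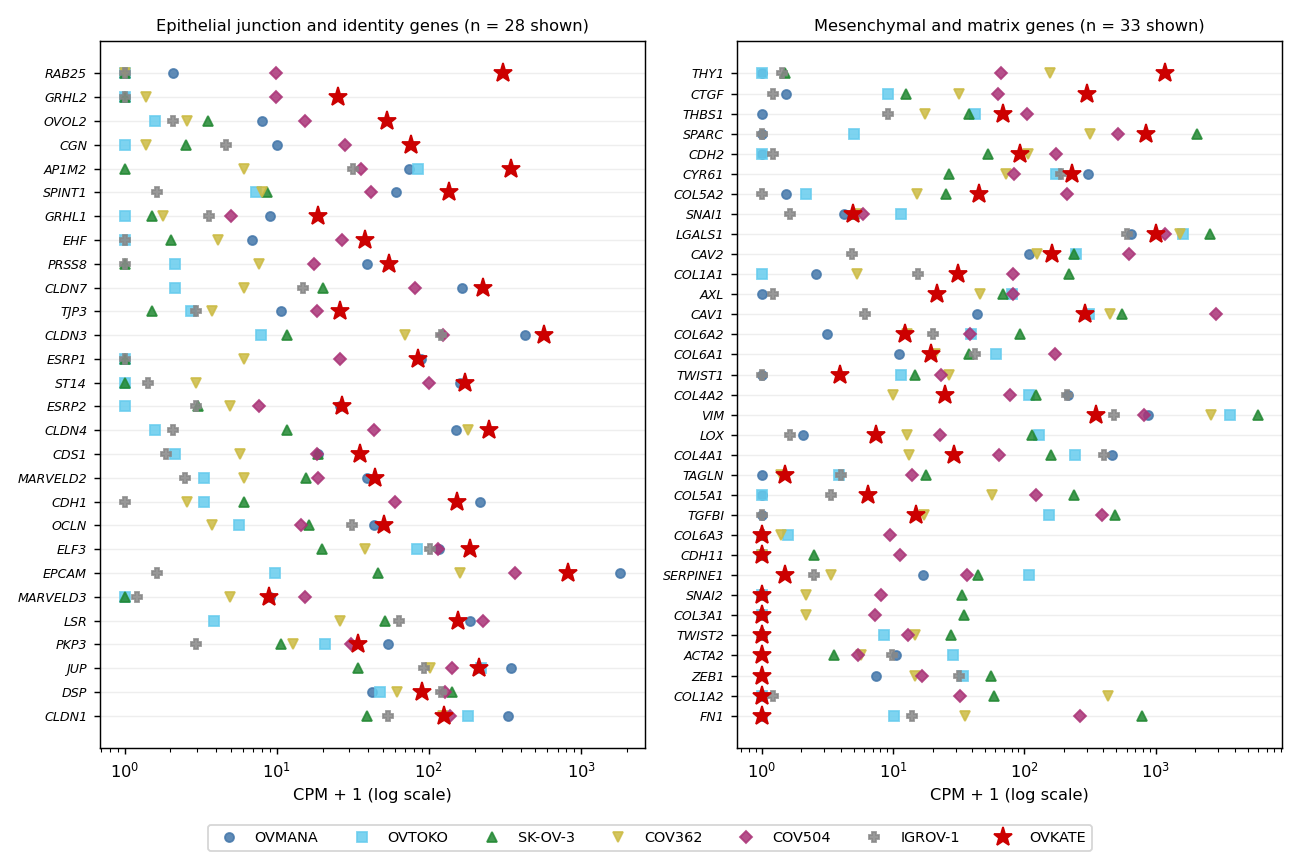
Level of the tested genes of the epithelial list (left, all but 1 of 29) and of the mesenchymal and matrix list (right, 33 genes), as CPM + 1 on a log axis with 1 symbol per line, genes ordered by log2 fold. OVKATE (red stars) is the highest line for epithelial genes such as RAB25 (307 CPM) and AP1M2 (348 CPM), while on the right THY1 and CTGF at the top are its highest and 9 genes such as FN1, ZEB1 and COL1A2 are at 0.

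Keratins were mixed. Of 16 listed 11 were tested and 1 was called higher (KRT23, nearly without reads elsewhere), against 0.0864% of all genes. At least 2-fold above every other line were 2 (4 without COV504, 1 with TMM-scaled sizes), and 0 were below. Over all genes these shares were 6.19% and 1.46%. The median log2 fold was -0.06, or 0.20 with library totals, 0.10 to 0.46 without OVMANA, OVTOKO or SK-OV-3, and 1.33 without COV504. KRT80 was at 178 CPM against 1.07 CPM or less in OVMANA and IGROV-1 and 78.0 in OVTOKO. KRT7 was highest in OVKATE, 1.97-fold above COV504, whereas KRT8 and KRT18, the partners of simple epithelium, were at 856 and 645 CPM against 3274 and 4627 CPM in COV504.

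Growth control genes showed single large differences within lists that otherwise did not stand apart. CDKN1B, the cyclin-dependent kinase inhibitor p27, had 0 counts in OVKATE. It was at 29.4 CPM in COV504, 41.5 in SK-OV-3, 50.8 in OVMANA, 55.5 in OVTOKO, 81.9 in COV362, and 141 and 169 CPM in the IGROV-1 pair, so OVKATE lay at least 19.8-fold lower than the nearest line. It was not called (log2 fold -10.45, SE 1.97, adjusted p = 0.279 by edgeR). CDKN2C, the inhibitor p18, was at 85.1 CPM against 1.07 to 32.5 CPM. The 20 G1 regulators, all tested, had 1 gene at least 2-fold above (CDKN2C) and 1 below (CDKN1B). Over all genes the shares were 6.19% and 1.46%. The median log2 fold of the list was -0.40. CCND2, or cyclin D2, had 0 counts, and CDKN2A, or p16, was at 128 CPM within a range of 0 to 434 CPM. Of 26 S and M phase genes 25 were tested, 0 were at least 2-fold beyond all other lines and the median was -0.37. CDK1 was highest in OVKATE, at 176 CPM against 46.1 to 120, while MKI67, TOP2A and TYMS were lowest. Of 22 growth factor receptors and ligands 18 were tested, with a median of 0.31. Of these, 3 were at least 2-fold above every other line (6.19% of all genes) and 6 were the highest (26.7%). The number highest is near the share over all genes and is no result about the list. EGFR was at 194 CPM against 33.9 to 90.9 CPM, FGFR2 at 59.9 against 2.03 to 25.9, and BTC, an EGFR ligand, at 51.9 against 0 to 23 CPM. With TMM-scaled library sizes 0 genes of the list were 2-fold above, and without OVMANA 6 were. ERBB3 and ERBB4 were also highest in OVKATE, at 59.9 and 64.3 CPM.

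Of all genes tested, 6 had no count in OVKATE and at least 10 CPM in every other line. Besides CDKN1B they were HMGA2, VCAN, GPAT3, FBN1 and SCAF8. HMGA2, an oncofetal chromatin protein, was at 64.1 to 109 CPM in the 5 single-library lines and at 401 and 438 CPM in the IGROV-1 pair, so OVKATE lay at least 43.2-fold lower than any line. VCAN, the matrix proteoglycan versican, ranged from 31.1 CPM in COV504 to 1019 in OVTOKO, and OVKATE lay at least 21.0-fold lower than the nearest of them. GPAT3, a glycerol-3-phosphate acyltransferase, ranged from 25.3 CPM in SK-OV-3 to 98.9 in OVTOKO, FBN1, or fibrillin-1, from 15.3 to 108 CPM, and SCAF8, a regulator of transcription termination, from 11.8 to 35.6 CPM, with OVKATE at least 17.1-fold, 10.3-fold and 7.92-fold lower. The 6 genes lie on 5 chromosomes, HMGA2 and CDKN1B on different arms of chromosome 12, and no neighbouring gene with at least 5 CPM in every other line was at least 4-fold below all of them. DNA was not analysed here. Other genes were chosen after their values were seen. NRP1, a semaphorin and VEGF co-receptor, had 1 count in OVKATE against 46.3 to 167 CPM, and MFAP5, a microfibril protein, 2 counts against 27.8 to 1308 CPM. TFAP2A, the transcription factor AP-2α, and ITGA5, the fibronectin-binding integrin subunit, had 3 counts each against 17.4 to 139 and 13.7 to 138 CPM. HOXB4 and HOXB6 had 0 counts against 3.47 to 65.0 and 3.21 to 208 CPM, and APOBEC3B, a cytidine deaminase, 0 against 4.05 to 54.0 CPM.

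Interferon-stimulated genes held 1 member far below all other lines. Of 36 listed 33 were tested, 0 were called, 1 was at least 2-fold below every other line (1.46% of all genes), 6 were the lowest (9.44% of all genes) and 0 the highest (26.7%), with a median log2 fold of -1.17. Without COV504 4 were highest, and without IGROV-1 5 were at least 2-fold below and 11 lowest. The summed level of 4144 CPM was above OVMANA at 3807, SK-OV-3 at 4114 and IGROV-1 at 1664 CPM. IFITM1, which restricts virus entry at the plasma membrane, was at 2.47 CPM (5 counts) against 52.0 to 1578 CPM, 21.1-fold below IGROV-1. Its neighbours on chromosome 11 were less far apart, with IFITM2 at 192 CPM against 300 to 813 and IFITM3 at 284 CPM against 333 to 2758. ISG15, a ubiquitin-like modifier, was at 443 CPM, within the range of 36.4 to 978 CPM. Of 22 antigen presentation genes 15 were tested, and the median was -1.16. Only 1 was at least 2-fold above every other line, which is near the 6.19% of all genes and no result about the list. That gene was HLA-DRB1, a class II β chain, at 38.1 CPM against 11.8 in COV362 and 1.16 CPM or less elsewhere. Reads of such polymorphic paralogues may be split between them. Of 27 cancer testis antigens only 4 were tested, with a median of -6.65 (-2.04 with zeros at their bound), and 24 of the 27 had no count in OVKATE. The members with reads were PRAME, at 109 CPM within 37.4 to 223 CPM, SSX1 with 12 counts and SSX2 with 7.

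Metabolic lists had a few low members. Of 19 hypoxia response genes, all tested, 2 were at least 2-fold below every other line (1.46% of all genes) and 6 were lowest (9.44%). The median was -0.96 (-0.74 with zeros at their bound). With TMM-scaled library sizes the counts were 3 and 9. CA12, a membrane carbonic anhydrase, had 0 counts against 9.34 CPM in COV504 and up to 236 in SK-OV-3, at least 6.30-fold lower. LDHA, which turns pyruvate into lactate, was at 146 CPM against 584 in COV362 and 2999 in OVTOKO, so OVKATE lay 4-fold below the lowest other line. Of 22 NRF2 targets 19 were tested, 1 was at least 2-fold below every other line (1.46% of all genes) and 4 were lowest (9.44%). The median was -1.72, or -1.04 without SK-OV-3. Without OVMANA 2 were below and without IGROV-1 3 were. TKT, or transketolase, was at 88.0 CPM against 273 to 1725 CPM. FTH1, the ferritin heavy chain, was at 3352 CPM and close to IGROV-1 at 3936, while NQO1 was at 706 CPM, within 170 to 1031. Of 21 sterol synthesis genes, all tested, 2 were at least 2-fold above every other line, 6 were highest and the median was -0.07, or 0.21 with library totals and 0.10 without COV504. These counts are near the shares over all genes, 6.19% and 26.7%, and are no result about the list. IDI1, an isopentenyl diphosphate isomerase, was at 386 CPM against 59.5 to 137, and HMGCS1 at 150 CPM against 29.5 to 71.9 CPM.

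Cytosolic ribosomal protein genes took the smallest share of reads in OVKATE. These 78 genes were chosen after their values were seen. They held 6.89% of all counts in OVKATE, against 10.6% in SK-OV-3, 12.2% in COV504, 17.5% in OVMANA, 18.9% in OVTOKO, 22.1% in COV362, and 20.3% and 18.7% in the IGROV-1 pair. With mitochondrial genes left out the share was 7.15% against 11.1% to 23.4%. Of 76 tested, 58 were lowest in OVKATE (9.44% of all genes) and 18 were at least 2-fold below every other line (1.46%). By edgeR 0 were called. The median log2 fold was -1.65, -1.62 with DESeq2 size factors and -1.34 with library totals. RPS12 was at 526 CPM against 1840 to 4113 and RPL27A at 447 CPM against 1675 to 2882. RPL39L, a germline-biased paralogue, went the other way, at 197 CPM against 1.78 to 60.3 CPM. EEF1A1, the elongation factor that brings aminoacyl-tRNA to the ribosome, was at 2027 CPM against 8774 to 14020 CPM. A short picked list of genes that includes EEF1A1 held 0.824% of counts against 1.77% to 2.70%. It mixed elongation factors and some initiation factors with TPT1, NAP1L1, PABPC1 and NPM1, and left out most initiation factors. Ribosomal protein pseudogenes, which share sequence with the ribosomal protein genes, held 0.0343% in OVKATE and 0.0449% to 0.117% elsewhere. Other transcripts under 1000 nt held 18.6% of the remaining counts in OVKATE, within the 14.9% to 20.8% of the other libraries. Over the counts left without ribosomal protein and mitochondrial genes, the median annotated length was 2113 nt, within 2005 to 2303 nt. The part of RNA quality or library preparation in the difference was not tested.

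**Figure D3:**
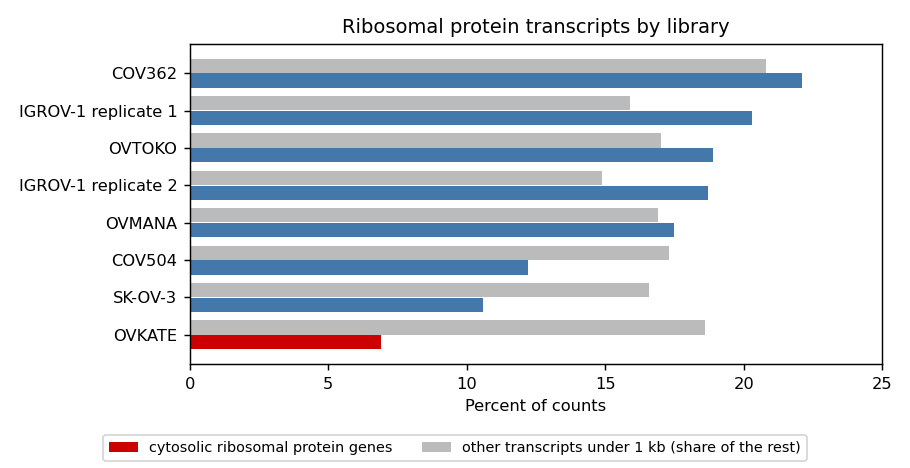
Percent of counts per PromethION library on cytosolic ribosomal protein genes (coloured bars, red for OVKATE and blue for the others), and on other transcripts under 1000 nt as a share of the remaining counts (grey). OVKATE has the lowest coloured bar, at 6.89%, while its grey bar of 18.6% lies within the range of the other libraries.

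Levels also differed by chromosome region, described here with windows chosen after values were seen. The 607 tested genes of chromosome 6 had a median log2 fold of -0.96, 4.45% of them were highest and 24.1% lowest in OVKATE, against 26.7% and 9.44% over all genes. All 9 of its 20-Mb windows had medians between -0.67 and -1.34. The 280 genes of chromosome 22 had a median of -0.78, with 7.86% highest and 24.6% lowest. The pattern on chromosome 22 was not particular to OVKATE. In COV362, 1.43% of the chromosome 22 genes were highest and 28.2% lowest, against 10.3% and 13.6% over all genes. In OVMANA, 23.6% of the chromosome 6 genes were lowest, against 16.8% over all genes, a smaller difference than in OVKATE. On chromosome 9 the 501 genes were 37.7% highest in OVKATE, and 62 of them (12.4%) were at least 2-fold above every other line. There the windows changed sign along the chromosome, from -0.95 and -0.71 in the first 40 Mb to 0.86 and 0.98 between 80 and 120 Mb. Chromosome 10 ran the other way, from 0.89 in its first 20 Mb to -1.29, -1.17 and -1.12 beyond 80 Mb. On chromosome 3 the first 80 Mb had medians of -0.66 to -0.95 and the window from 180 Mb a median of 0.88, with 68.9% of its 90 genes highest in OVKATE. The first 20 Mb of chromosome 12, which hold CDKN1B, had a median of -1.23 over 105 genes. A second measure could be taken in every line, the median per chromosome of the difference in log2(CPM + 1) from the median of the 6 remaining lines, centred on all genes. In OVKATE it ran from -0.68 on chromosome 6 to 0.34 on chromosome 21, a range of 1.02, and the ranges of the other lines were 0.76 to 1.32. On chromosome 22 this measure was -0.55 in OVKATE and -0.52 in COV362, and on chromosome 6 it was -0.18 in OVMANA. DNA copy number was not analysed here.

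**Figure D4:**
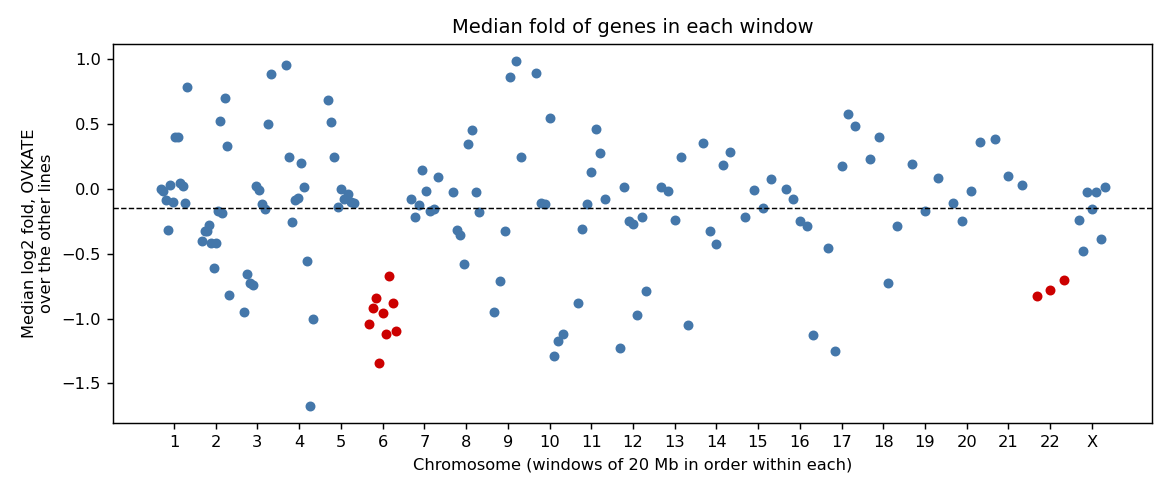
Median log2 fold of OVKATE over the other lines for the tested genes of each 20-Mb window with at least 20 genes, in order along each chromosome, with the median of all genes (-0.15) as a dashed line. Windows of chromosomes 6 and 22 (red) all lie below the line, between -0.67 and -1.34, while those of chromosomes 3, 4, 9 and 10 lie on both sides of it.

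Transcript shares, the percent of a gene's reads given to each of its transcripts, were compared in the same way. edgeR's diffSpliceDGE, with a Simes p per gene, called 0 of 2907 genes (0%) as using transcripts differently in OVKATE. At an unadjusted p under 0.05 there were 57 genes, and the smallest adjusted p was 0.0611. With the spread of the IGROV-1 replicates as the error in place of the spread between lines, 143 genes were called. As a description, 30 of 11077 transcripts (0.271%), in genes with at least 50 counts in every line, had a share at least 20 points outside the range of the 6 other lines. They belonged to 18 gene identifiers, 2 of them joined, and 14 of the 18 were among the 143. Other lines had between 10 and 31 such transcripts, so OVKATE was not set apart by their number. The 2 IGROV-1 libraries differed by at least 20 points for 69 transcripts, and by 9.3 points at the 95th percentile. The shares nearest the threshold were MYOF, 20.19 points outside, and PUM2, 19.78 points. All transcripts and exons named from here on were chosen after their values were seen, and intervals on their shares are 95% Wilson intervals.

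The share farthest outside the other lines was in EXOC7, a subunit of the exocyst, which tethers secretory vesicles to the plasma membrane. Its transcript EXOC7-216 made up 53.0% (45.8% to 60.3%) of 177 counts in OVKATE and 2.3% to 19.3% in the other lines, with 3.5% and 2.6% in the IGROV-1 replicates. Counted over all transcripts that span it, a 93-nt coding exon at chr17:76091143-76091235 was included in 58.3% (50.9% to 65.3%) of OVKATE reads, against 23.5% in COV362, 21.7% in COV504, 13.6% in SK-OV-3, 6.1% in OVMANA, 4.3% in OVTOKO and 3.1% in IGROV-1. APP, the amyloid precursor protein, has a 168-nt exon that encodes a Kunitz-type protease inhibitor domain, followed by a 57-nt exon. OVKATE included the 57-nt exon in 5.9% (3.9% to 8.5%) of 413 counts against 21.4% to 37.3%, and the 168-nt exon in 87.6% (84.1% to 90.5%) against 69.0% to 83.0%. The form with only the 168-nt exon, APP-204, reached 81.7% against 39.3% to 58.1%. In YIF1A, a transport factor between endoplasmic reticulum and Golgi, a 156-nt exon was included in 66.4% (61.0% to 71.0%) of 337 counts against 87.4% to 97.1%. In MYOF, the membrane-repair protein myoferlin, a 39-nt exon was included in 36.4% (29.4% to 43.5%) of 177 counts against 56.3% to 88.0%. The IGROV-1 replicates gave 51.9% and 75.9% for that exon, a gap larger than the distance of OVKATE from OVMANA. The exons that carry these differences are printed 5′ to 3′ as in the transcript, from GENCODE 29 on GRCh38, all on the minus strand, with the exon in capitals and 15 bases of the flanking exons in lower case. The APP exon is the 57-nt exon at chr21:25997360-25997416, the YIF1A exon lies at chr11:66285381-66285536 and the MYOF exon at chr10:93392917-93392955.
EXOC7 exon: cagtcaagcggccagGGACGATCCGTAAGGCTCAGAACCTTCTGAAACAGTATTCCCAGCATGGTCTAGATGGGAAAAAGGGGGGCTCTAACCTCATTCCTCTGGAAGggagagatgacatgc
APP exon: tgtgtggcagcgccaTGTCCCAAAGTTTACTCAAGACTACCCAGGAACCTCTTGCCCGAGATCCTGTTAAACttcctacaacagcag
YIF1A exon: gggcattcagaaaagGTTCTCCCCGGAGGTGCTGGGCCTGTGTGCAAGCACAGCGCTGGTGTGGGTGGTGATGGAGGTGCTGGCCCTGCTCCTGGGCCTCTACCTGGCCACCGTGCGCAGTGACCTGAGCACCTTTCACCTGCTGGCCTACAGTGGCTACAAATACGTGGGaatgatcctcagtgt
MYOF exon: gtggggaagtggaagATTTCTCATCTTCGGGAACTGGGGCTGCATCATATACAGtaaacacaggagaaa

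**Figure D5:**
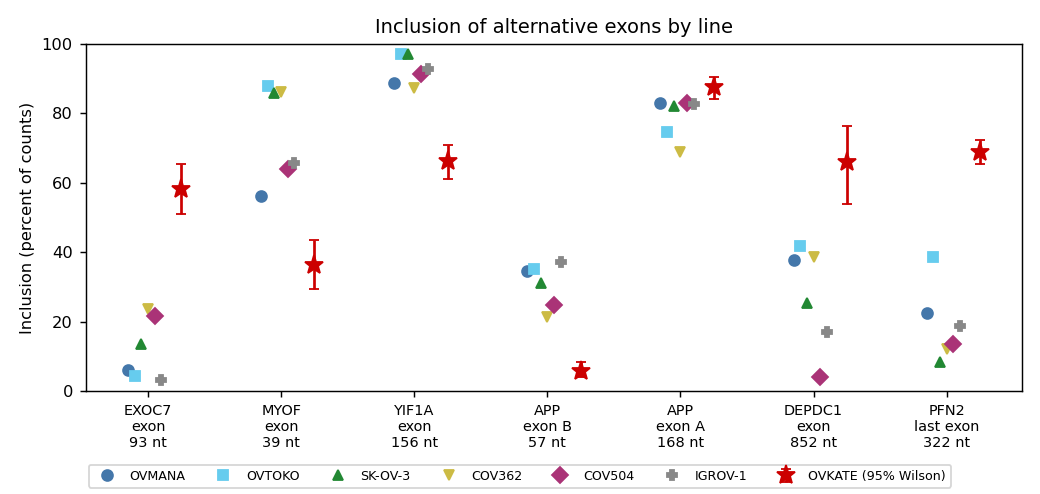
Percent of counts that include each of 7 alternative exons or exon segments, with 1 symbol per line and a 95% Wilson interval on OVKATE (red stars). The PFN2 segment is labelled as a last exon, though the forms with and without it end at the same base. OVKATE lies above the 6 other lines for the EXOC7 and DEPDC1 exons, the PFN2 segment and the 168-nt APP exon. It lies below them for the MYOF, YIF1A and 57-nt APP exons.

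Other genes differed in their first or last exons or in longer segments. PFN2, or profilin 2, an actin-binding protein, has a 322-nt alternative segment with 95 coding bases. It was included in 68.9% (65.3% to 72.4%) of 650 counts in OVKATE against 38.5% in OVTOKO and 8.4% to 22.5% in the other 5 lines. PFN2-201, which has the segment, and PFN2-203, which lacks it, end at the same base. DEPDC1, a mitotic gene, included an 852-nt exon in 66% (54.0% to 76.5%) of 65 counts against 4.0% to 41.8%. QSOX1, a secreted sulfhydryl oxidase, was given to its transcript QSOX1-202 at 91.5% against 48.6% to 68.5%. DDAH2, an enzyme that degrades methylarginines, had DDAH2-212 at 56.8% against 5.9% to 27.8%, and MRPL43, a mitochondrial ribosomal protein, MRPL43-201 at 45.4% against 2.0% to 13.3%. SHC1-204, of a receptor adaptor gene, was at 48.3% against 9.7% to 25.1%, and LIMCH1-201, of a non-muscle myosin regulator, at 4.3% against 25.8% to 43.5%. In 23 of 2751 genes whose 6 other lines shared the same leading transcript, OVKATE had a different one. These included EXOC7, PFN2, DDAH2, DEPDC1, MRPL43, MYOF and UQCC1, but also genes such as ASNA1, where the leading transcript held 50.9% in OVKATE and 49.8% to 49.9% elsewhere.

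WT1 could be described by isoform in OVKATE alone, since COV362 had 1 read. A short coding segment at chr11:32391972-32391980, whose use separates the forms of WT1 with different spacing of the last zinc fingers, was included in 51.9% (44.1% to 59.7%) of 154 counts. It is shown in capitals with 15 flanking bases on each side, on the minus strand of GRCh38 as in GENCODE 29, because both forms were read at similar levels.
WT1 segment: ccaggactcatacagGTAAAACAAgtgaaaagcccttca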

How the data were processed

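RNA of 7 lines was measured by nanopore sequencing. The authors deposited transcript tables of estimated counts and TPM. Reads were aligned with minimap2 2.24-r1122 to GRCh38, per the submitters' processing notes, with a quantifier not given in the sources used here. Of 99493 transcripts, 99233 were found in GENCODE 29, and 97825 of these had the same position. Of the deposited gene identifiers, 722 of 57110 join several genes, and these were kept joined. Expected counts were summed per gene identifier, rounded and scaled to CPM. The deposited TPM equalled CPM.

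OVKATE was tested against the 6 lines with edgeR 4.0.16 (R 4.3.3), TMM and filterByExpr, with the spread between lines as error (5 residual degrees of freedom), Benjamini-Hochberg adjustment and a two-sided threshold of 0.05. The 2 IGROV-1 libraries were summed for the tests. DESeq2 1.42.0 was an alternative. P-values measure only the spread between these single libraries. Log2 folds are edgeR's, folds over a named line are ratios of CPM, and distances from the nearest line were taken on log2(CPM + 1). Where a gene had no count, the bound used 3 counts in 1 library. On simulated data 71 of 200 genes changed by log2 4 were called (35.5%) among 12185 genes, and 0 of 200 changed by log2 2 among 12257. For transcript usage 68 and 2 of 200 were recovered among 2907 genes.

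The lists and members were chosen with earlier results of these data known. Named were up to 20 called coding genes and 5 noncoding genes per direction beyond every other line by at least 2-fold, list members, genes at 0 in OVKATE with at least 10 CPM in all other lines, and genes at 10 CPM or more in OVKATE with under 3 counts elsewhere. Usage genes would have been named from calls. A few list members are not reported here. Genes outside this rule are said to be chosen after their values were seen. The alternatives were other scalings, filters, tools, pseudocounts, instruments and lines left out.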

Additional observations from a re-analysis of the deposited data

How the results depend on the processing

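The 11 genes called higher ranged from 1 to 11, and the 0 called lower from 0 to 1, as lines or IGROV-1 libraries were left out. DESeq2 called 32 higher and 93 lower. With the spread of the IGROV-1 replicates as error, 3380 were called higher and 1978 lower. Without a filter on low counts 14 genes were called higher. The 788 genes at least 2-fold above every other line ranged from 785 to 962 as libraries were left out, and the 186 below from 185 to 254. At 4-fold these were 267 and 43, and with a pseudocount of 5 CPM the genes below were 85. The 0 usage calls became 1 without SK-OV-3, 1 with the gene-level F test and 143 with the spread of the IGROV-1 replicates, an alternative chosen after seeing the data. Leaving ribosomal protein and mitochondrial genes out of the totals, also chosen after seeing the data, gave 623 above and 236 below. The causes were not tested. Over 1840 alternatives of 121 named genes, 1642 kept their direction and side of the threshold, 46 lost and 152 gained a call, and 0 reversed. All 270 alternatives of the 30 named transcripts kept their direction. No paired analysis was possible because OVKATE has 1 library, and the groups compared share fewer than 2 replicate numbers. Depth limits genes under about 1.48 CPM in OVKATE.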
